A study of Mus musculus with 2 samples.

Results

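Transcript models lying outside annotated genes were examined in long-read RNA sequencing of C2C12 cells. These were all models that the deposited tables put in the Intergenic class, 1623 of 160963 models in the series. Of these, 926 of 82272 models came from replicate 1 and 697 of 78691 from replicate 2. Members were chosen by the class label alone, not by level or structure, and both spliced and 1-exon models were kept.

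C2C12 is an immortalised mouse myoblast line that the labels trace to crushed thigh muscle of C3H mice, obtained from ATCC. Total RNA was sequenced in 1 group of 2 libraries, which the labels call biological replicates, of 1 line from the same donor, with no treatment and no second condition. The labels do not say whether the culture was proliferating or differentiating. Replicate 1 held 791850 reads and replicate 2 held 735077. The defining muscle markers were present: Des, the muscle intermediate filament desmin, had 881 and 1187 reads, Myod1, the myoblast determination factor, 119 and 127, and Myog, the differentiation factor myogenin, 438 and 454. Markers of other cell types were at or near 0, with 0 and 0 reads for Ptprc (blood), 0 and 1 for Pecam1 (endothelium) and 0 and 0 for Epcam (epithelium).

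Mammalian genomes are transcribed well beyond annotated genes. Such transcripts include long non-coding RNAs with their own promoters and introns, RNAs that start head to head with a coding gene, transcripts that run on past an annotated 3′ end, and copies of mRNAs inserted elsewhere as processed pseudogenes. An intron in a long read is taken here as a mark of splicing, whereas a 1-exon read carries no such mark.

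Starts known to RefSeq stood at some of these loci, and 4 are shown, all at or beside spliced loci, which are the minority. They come from the RefSeq start windows (GRCm38.p6, the build of mm10), which run from 250 bases before to 50 bases after a gene's start, and they were chosen after the values were seen. The first is the 160 bases between the RefSeq starts of D17H6S56E-5 and of Vars on the opposite strand (RefSeq starts Vars upstream of the GENCODE start used below), at chr17:35000747-35000906 on the minus strand, beside the locus with the most reads. Capitals mark CG dinucleotides, 17 in this stretch. The next pair are the whole windows of the long non-coding RNAs Gm33302 (chr9:97275489-97275788, plus strand) and Gm2560 (chr4:14291260-14291559, minus strand), with the bases inside exons of the intergenic locus in capitals. The last is the 250 bases before the start of Selenoi (chr5:30232331-30232580, plus strand). All of these lie in the first exon of a locus on the opposite strand and are in capitals.
D17H6S56E-5: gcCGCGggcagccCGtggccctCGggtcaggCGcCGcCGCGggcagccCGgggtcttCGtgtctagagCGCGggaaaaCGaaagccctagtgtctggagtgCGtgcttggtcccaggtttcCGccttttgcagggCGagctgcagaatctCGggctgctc
Gm33302: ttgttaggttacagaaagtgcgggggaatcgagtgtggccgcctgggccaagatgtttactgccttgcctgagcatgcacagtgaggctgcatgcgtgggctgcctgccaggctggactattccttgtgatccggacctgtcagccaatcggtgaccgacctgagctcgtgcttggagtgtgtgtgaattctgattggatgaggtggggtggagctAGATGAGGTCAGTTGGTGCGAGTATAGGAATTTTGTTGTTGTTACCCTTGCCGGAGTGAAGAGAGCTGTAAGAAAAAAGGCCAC
Gm2560: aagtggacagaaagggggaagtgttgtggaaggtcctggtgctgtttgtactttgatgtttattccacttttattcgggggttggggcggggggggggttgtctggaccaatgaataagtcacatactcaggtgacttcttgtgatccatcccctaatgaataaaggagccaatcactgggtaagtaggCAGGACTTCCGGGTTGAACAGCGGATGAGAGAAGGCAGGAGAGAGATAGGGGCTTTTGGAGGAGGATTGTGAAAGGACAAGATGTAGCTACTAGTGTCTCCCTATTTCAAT
Selenoi: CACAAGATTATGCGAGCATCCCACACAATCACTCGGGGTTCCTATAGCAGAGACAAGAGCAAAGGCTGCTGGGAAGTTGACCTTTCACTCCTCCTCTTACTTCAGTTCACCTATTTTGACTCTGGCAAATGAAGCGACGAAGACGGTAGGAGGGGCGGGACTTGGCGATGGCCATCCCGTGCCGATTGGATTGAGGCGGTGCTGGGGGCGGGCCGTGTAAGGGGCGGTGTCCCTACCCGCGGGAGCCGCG
At Gm33302 the best supported models began 27 and 34 bases before the RefSeq start, and at Gm2560 61 and 7 bases before it. The Gm2560 locus had only 2 and 2 reads. The whole windows of D17H6S56E-5 and Selenoi were rich in CG, with 29 and 26 CG dinucleotides. The Gm33302 and Gm2560 windows had 10 and 4, and the median over all 32851 windows was 7. The letters TATAAA, searched on both strands, occurred in none of these 4 windows and in 13.6% of all windows.

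Intergenic models took a very small share of each library. They held 1948 reads in replicate 1, 0.246% of the library (Wilson 95% interval 0.235 to 0.257%), and 1503 reads in replicate 2, 0.204% (0.194 to 0.215%). These intervals do not overlap, but they cover counting error only. Most models rested on 1 read, 765 (82.6%) and 576 (82.6%). The like share was 83.9% and 84.0% for multi-exon models with new splice sites (class NNC), 66.9% and 69.9% for antisense models and 26.9% and 26.7% for annotated ones. At the other end, 47 and 30 intergenic models had at least 5 reads, and 17 and 16 at least 10. The 5 models with the most reads took 27.1% and 27.3% of all intergenic reads. The models split evenly by strand, 460 plus and 466 minus in replicate 1, and 368 and 329 in replicate 2. In the deposited tables no intergenic model shared its gene with another of the class, while genes of the Intergenic kind also held models of other classes, such as 33 and 29 NNC models.

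Spliced models were the minority. One-exon models made up 759 (82.0%) in replicate 1 and 554 (79.5%) in replicate 2, with 1574 and 1109 reads. The 167 and 143 spliced models took 374 and 394 reads, which was 19.2% (17.5 to 21%) and 26.2% (24.1 to 28.5%) of intergenic reads. Without the 1 locus with the most reads, beside Vars, these shares were 12.7% and 16.2%. Among spliced models 102 and 79 had 2 exons and the most had 7 and 6. Median model length was 1065 and 1267 bases for spliced and 902 and 1068 for 1-exon models. The 271 and 242 introns of spliced models had a median length of 1940 and 2117 bases, and the shortest had 35 and 57. Spliced here means a model of at least 2 exons, and the sequence at splice sites was not checked.

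Since the identifiers of unannotated models belong to 1 library, models were joined into loci where they overlapped by at least 1 base on the same strand. This gave 1413 loci, 262 of them with a spliced model. Only 198 (14.0%) had intergenic reads in both libraries, 21.6% of the 917 loci of replicate 1 and 28.5% of the 694 of replicate 2. Those 198 nevertheless held 51.7% and 52.6% of intergenic reads. Spliced loci were read in both libraries in 65 of 262 cases (24.8%) and 1-exon loci in 133 of 1151 (11.6%). Overlap was taken over whole spans, introns included, so a spliced locus read in both need not share an intron. Only 27 intron chains of replicate 1 had at least 1 intron in common with a spliced intergenic model of replicate 2. The share in both was higher at higher support, which the same reads define: 97 of 1186 loci with at most 1 read in a library were read in both (8.18%), 63 of 168 with 2 to 4 reads (37.5%), and 38 of 59 with at least 5 (64.4%). In that last set, 8 of 9 spliced and 30 of 50 1-exon loci were read in both. Only 18 loci had at least 5 reads in each library and 10 had at least 10. The plot of reads by library shows how thinly the high end was filled.

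**Figure D1:**
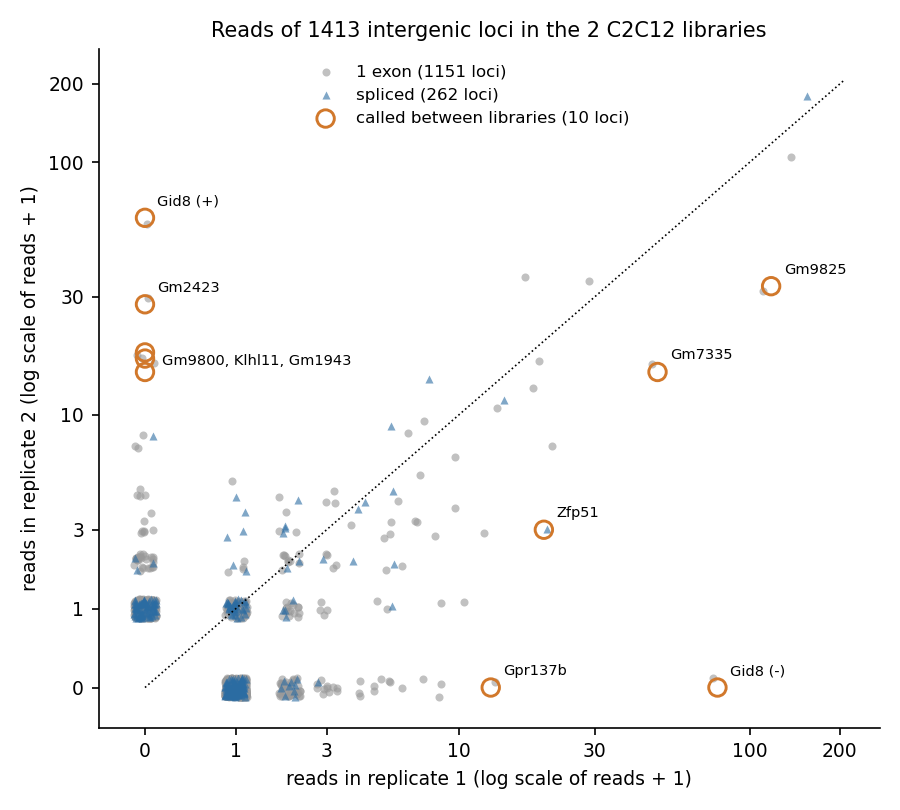
Reads of each of the 1413 intergenic loci in replicate 1 (x axis) and replicate 2 (y axis), both on a log scale of reads + 1 with small random offsets. Triangles are the 262 spliced loci, grey points the 1151 one-exon loci, rings the 10 loci called between libraries, labelled by nearest gene, and the dotted line marks equal reads; most loci lie at 0 or 1 read.

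Exact splicing was shared by few models. Of 167 and 143 intron chains, 17 were identical in both libraries, 10.2% and 11.9%, and these 17 carried 204 and 240 of the 374 and 394 spliced reads (54.5% and 60.9%). Most of that was 1 chain, the locus beside Vars described next, and without it the other 16 carried 59 of 229 and 61 of 215 (25.8% and 28.4%). Among all 17 shared chains, 12 had 2 exons, 3 had 3 and 2 had 4. A further 6 chains of each library occurred in the other under another class. Single introns matched in 38 cases, 14.0% of 271 and 15.7% of 242.

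The best supported spliced locus lay beside Vars, the valyl-tRNA synthetase gene. It had 145 reads in replicate 1 and 179 in replicate 2 at chr17:34995913-35000439 on the minus strand, 548 bases before the Vars start on the opposite strand. Its 2 exons flanked an intron of 697 bases in both libraries, with a last exon of 3557 and 3552 bases. RefSeq annotates the protein-coding gene D17H6S56E-5 here, a symbol that GENCODE M21 lacks. The models began 307 and 395 bases inside the RefSeq start. A further 14 and 15 reads of other classes lay on the same strand, and the difference between libraries was not called (log2 ratio of replicate 2 over replicate 1 0.41, counting SE 0.16, adjusted p 0.138 by the exact binomial test described below). This locus alone held 324 of the 3451 intergenic reads of both libraries.

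Next came spliced loci with about 10 reads a library. The locus at chrX:9328980-9332621 on the minus strand, 872 bases before the processed pseudogene Gm6829, had 14 and 11 reads. Both libraries gave the same first base, last base and intron of 2523 bases. A locus at chr11:31545802-31549650 on the plus strand had 8 and 13 reads, 2 exons and an intron of 1999 bases. Its nearest annotated gene, Bod1, a regulator of chromosome biorientation, was 115531 bases away. Neither of these 2 loci overlapped a RefSeq gene.

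Lower down, structures still matched. At chr2:89675436-89681394, minus strand, 3500 bases before the olfactory receptor gene Olfr1251, 5 and 9 reads followed the same 3 exons. At chr17:17179295-17206385, plus strand, with Gm5165 as nearest GENCODE gene and the protein-coding gene Gm38396 in RefSeq, 4 and 4 reads joined 4 exons across introns of 23243, 242 and 1293 bases. At chr5:30229263-30232581, minus strand, 4 and 4 reads began on the first base of Selenoi, an enzyme of phospholipid synthesis, and ran away from it with an intron of 2448 bases. At chr19:24911151-24919916, plus strand, 6 and 2 reads shared an intron of 7020 bases and ended on the edge of Cbwd1. The Gm33302 locus (chr9:97275705-97281881, plus strand), whose nearest GENCODE gene is A030012G06Rik, had 6 and 5 reads but not 1 structure, since replicate 1 joined 2 exons and replicate 2 placed an extra exon of 235 bases between them.

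At 2 of the 10 best supported spliced loci the reads were mostly unspliced. At chr17:21473928-21475762, plus strand, 8341 bases past the end of Zfp51 and where RefSeq has the long non-coding RNA Gm52290, the 20 reads of replicate 1 had 1 exon and the 3 of replicate 2 had 2. At chr4:12233951-12238021, plus strand, beside the processed pseudogene Gm11847, 2 and 4 reads were spread over 5 models. Only 1 of them was spliced, with 1 read and an intron of 48 bases. The drawing of exons shows these beside the matching structures.

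**Figure D2:**
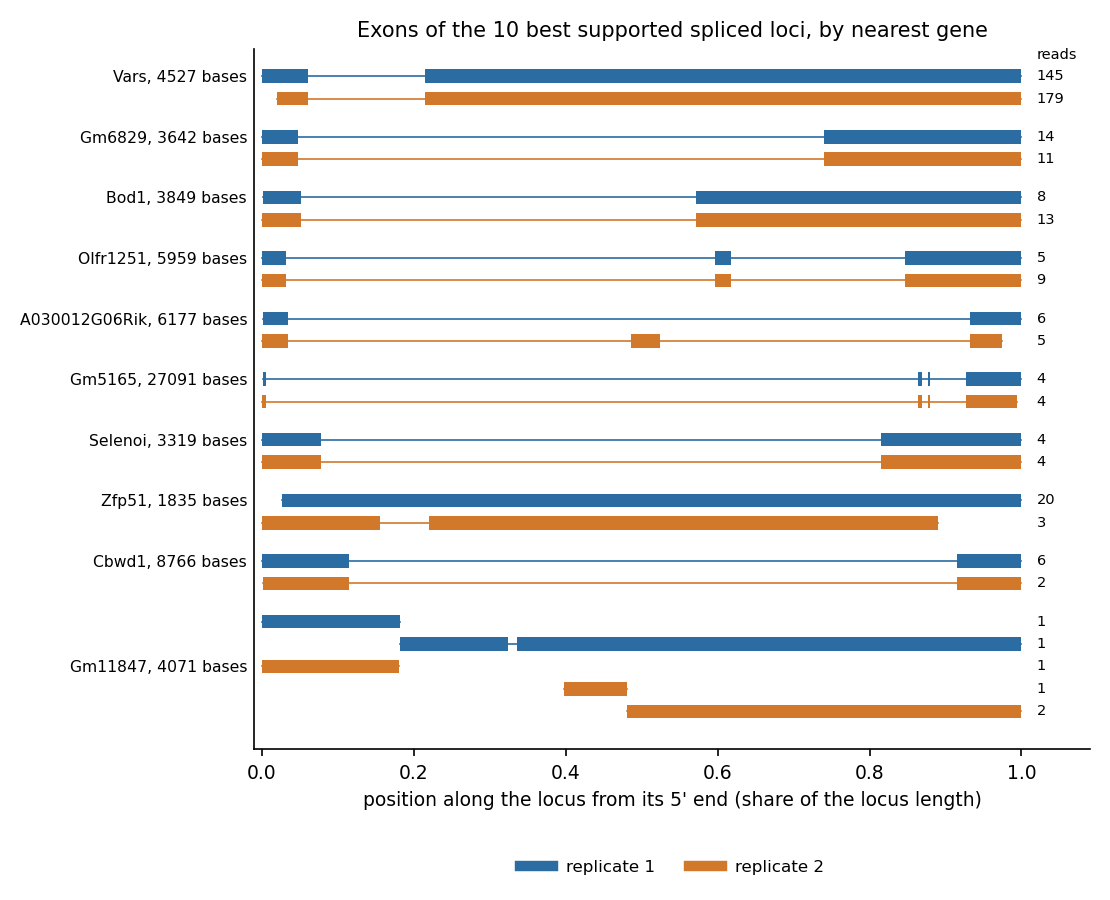
Exons (boxes) and introns (lines) of the models at the 10 best supported spliced loci, replicate 1 in blue and replicate 2 in orange, drawn from the 5′ end as a share of each locus length, with reads per model at the right. Loci are named by the nearest GENCODE gene; the first 4 have the same introns in both libraries.

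The loci with the most exons had few reads. A locus at chr9:116392652-116399713, plus strand, over the RefSeq long non-coding RNA Gm31559 and 53141 bases past D730003K21Rik, had 1 and 1 reads with 6 exons each, and introns of 278, 3906 and 548 bases recurred. At chr1:119104710-119152889, minus strand, over RefSeq Gm41934, also a long non-coding RNA, 1 read had 5 exons and the other 4, with introns of 16130 and 1802 bases in both. A locus at chr16:45043309-45093402, minus strand, shared its edge base with the start of Ccdc80 on the opposite strand. RefSeq's Cd200r3 also overlaps it on that strand. There, 1 read of 5 exons and 1 of 6, which began on the edge base, shared an intron of 379 bases and an exon of 208 bases. Each of these structures rests on 1 read a library.

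Among 1-exon loci the highest lay on an unplaced scaffold. It had 139 and 99 reads at chrUn_GL456382:14178-14749, minus strand, where no gene is annotated. Ends differed by 1 base at the 5′ and 3 bases at the 3′ end, and the libraries did not differ beyond the threshold (adjusted p 0.317 by the exact binomial test). A locus at chr19:4061502-4064701, minus strand, 1933 bases before Gstp3, a gene of the glutathione S-transferase family, had 30 and 35 reads. One at chrX:51113494-51116105, plus strand, 1164 bases past the GENCODE end of Mbnl3, a splicing regulator of the muscleblind family, had 19 and 16. RefSeq's Mbnl3 overlaps this locus on the opposite strand. There, 26 and 24 antisense-class reads lay over the same bases on the other strand. Whether the libraries kept the strand of the RNA is not given in the sources used here, so reads of opposite strands at unspliced loci cannot be told apart.

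Other 1-exon loci of this level lay on chromosomes 13 and 8. The locus at chr13:21816421-21820119, plus strand, 4274 bases past the end of Hist1h4m, a histone H4 gene, had 20 and 12 reads. The locus at chr13:21762880-21766582, minus strand, 2543 bases before the lincRNA gene Gm11274, had 7 and 9. At the end of Glg1, which encodes a Golgi glycoprotein, chr8:111153293-111154421 on the minus strand had 14 and 11 reads. This locus shares 1 base with Glg1 on the same strand, and RefSeq's Glg1 overlaps it too. The replicate 1 model began on that base and the replicate 2 model 529 bases further from the gene. Glg1 itself had 40 and 35 reads.

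Processed pseudogenes, unspliced copies of mRNAs, adjoined the other 4 of the 10 best supported 1-exon loci. These were Gm9825 (chr6:7981829-7982541, minus strand, 118 and 33 reads), Gm7335 (chr17:37712048-37713552, minus strand, 49 and 15), Pgam1-ps2 (chr7:27468828-27469771, minus strand, 16 and 36) and Ptges3-ps (chr6:85844459-85845405, minus strand, 20 and 8). Each locus shares 1 base with its pseudogene and otherwise lies beside it, at Ptges3-ps on the opposite strand and at the others on the same. Reads of such copies can be assigned to a near-identical copy elsewhere. Whether this reaches the flanking loci was not tested, so these levels are uncertain.

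The outermost base of many loci fell exactly on the edge of an annotated gene. Of 1411 loci on chromosomes or scaffolds with a gene, 344 (24.4%) shared a base with a GENCODE M21 gene, and in all 344 it was 1 base, the outermost of both. Gaps just above that were nearly empty, with 2 loci at 1 to 300 bases from a gene, 26 at 301 to 500 and 60 at 501 to 700. In 158 of the 344 the 5′ end of the locus sat on the end of a gene of the same strand, and in 151 on the start of a gene of the opposite strand. The remaining 24 and 11 touched a gene with their 3′ end. Models were also matched to the first and last bases of annotated transcripts of either strand. The 5′ end fell on such a base in 212 (22.9%) and 140 (20.1%), and the 3′ end in 21 (2.27%) and 23 (3.30%). How model ends were set is not given in the sources used here, and its part in these positions was not tested. Of the loci named above, every model at Gm9825, Gm7335 and Selenoi began on such a base, and every model at Cbwd1 and Ptges3-ps ended on one.

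By median distance, ends recurred more closely at the 3′ side. Over the 198 loci read in both libraries, the 3′ ends of the best supported models lay a median of 4 bases apart and 128 (64.6%) within 10 bases, against 26.5 bases and 91 (46.0%) for the 5′ ends. Loci whose end fell on an annotated transcript start or end were then left out. For the rest, 3′ ends stood at 4 bases and 64.4% of 194 loci, and 5′ ends at 57.0 bases and 36.1% of 147. Spliced loci had a 3′ median of 8 bases and a 5′ median of 16, 1-exon loci 3 and 42. Distances over 100 bases went the other way at spliced loci, with 28 of 65 (43.1%) at 3′ ends and 22 (33.8%) at 5′ ends. At 1-exon loci they were 22 of 133 (16.5%) and 58 (43.6%).

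One-exon loci lay closer to genes than intergenic sequence at large, whereas spliced loci differed less from it. With loci that touch a gene counted, 63.5% of all loci were within 5 kb of a gene, 69.0% of the 1-exon and 39.1% of the spliced. Among the 1067 that shared no base, the median gap was 4683 bases, 3508 for 1-exon and 12423 for spliced loci. Measured at midpoints, 66.4% of 1-exon and 24.5% of spliced loci lay within 5 kb, whereas 19.8% of all 1442094643 intergenic bases did. Within 1 kb the shares were 26.1%, 4.98% and 4.79%. A midpoint lies inside its locus, so a longer locus measures further from a gene, and the differences were not tested. At the far end, 86 loci were over 50 kb from any gene, and the widest gap was 368299 bases.

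**Figure D3:**
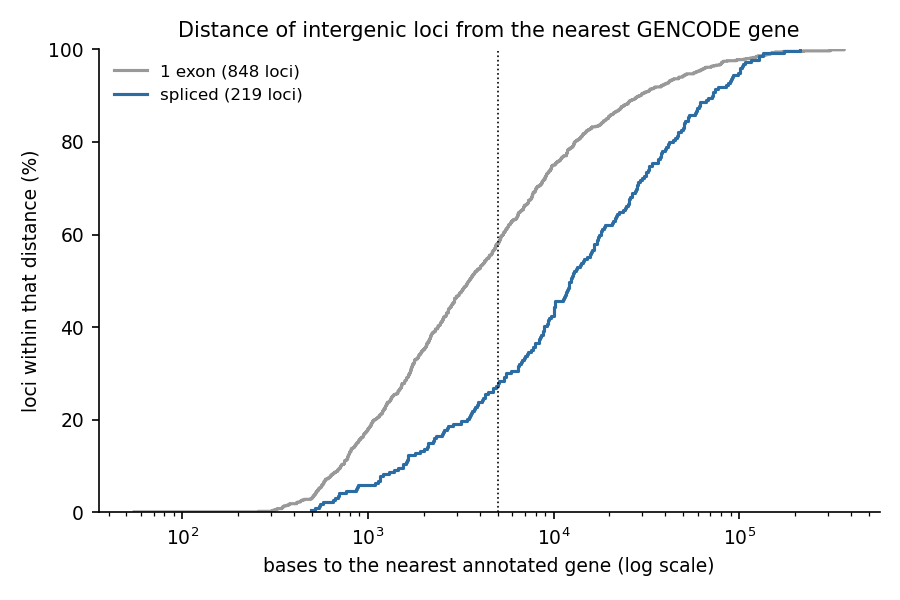
Cumulative share of intergenic loci (y axis, %) within a distance of the nearest GENCODE M21 gene (x axis, bases, log scale), for the 848 one-exon and 219 spliced loci that share no base with a gene; the dotted line is at 5 kb. The 1-exon curve lies to the left of the spliced one, with medians of 3508 and 12423 bases.

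The side nearest a gene also differed by kind. Of the 1067 loci, 381 (35.7%) lay past the end of a gene on its strand, at a median of 2994 bases, 248 (23.2%) past the end on the other strand, 235 (22.0%) before the start on the same strand and 203 (19.0%) before the start on the other. One-exon loci were past the end on the same strand in 325 of 848 cases (38.3%) and spliced loci in 56 of 219 (25.6%). At midpoints, 43.1% of 1-exon loci lay within 5 kb past a gene end and 23.3% within 5 kb before a start. Spliced loci had the order reversed, 8.43% and 16.1%, and intergenic bases had 10.1% and 9.72%.

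Genes near these loci were often expressed. Of the 243 loci within 5 kb past a same-strand gene end, 190 had a protein-coding neighbour, and 126 of those neighbours (66.3%) had at least 10 reads over both libraries, against 38.8% of all protein-coding genes. Of the 86 loci over 50 kb away, 9 (10.5%) had a nearest gene with that many. Of these neighbours 24.4% were protein-coding, and over annotated genes of every type 16.1% had that many reads. Among the 169 loci that shared their edge base with a gene of the same strand, 44 (26.0%) touched a pseudogene, a share near the 24.4% of pseudogenes among all 55536 annotated genes.

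RefSeq, a second annotation, was set beside GENCODE M21. Of the 1069 loci that shared no base with a GENCODE gene, 316 (29.6%) overlapped a RefSeq gene, 152 of them a long non-coding RNA and 133 a protein-coding gene. Of the 316, the RefSeq gene was known to be on the same strand for 165, and its symbol was absent from M21 for 171. The share on either strand was 41.4% of 220 spliced and 26.5% of 849 one-exon loci. In neither annotation were 753 loci. The best supported models of 40 loci began in a RefSeq start window of their own strand, 24 of 262 spliced (9.16%) and 16 of 1151 one-exon loci (1.39%). A further 94 loci began only in a window of the opposite strand, 6.49% of spliced and 6.69% of 1-exon loci.

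The last question was which loci differed between the libraries. For each feature with at least 10 reads over both libraries, the split of its reads was set against the ratio of library totals in an exact binomial test (two-sided). Benjamini-Hochberg adjustment at 0.05 ran over all annotated genes and unannotated loci together. Such p-values compare these 2 libraries and cover counting error only. Of 9245 features tested, 4.50% were called. Among 33 intergenic loci with enough reads, 10 were called, 30.3%, with 5 higher in each library (15.2% and 15.2%, where 2.93% and 1.57% of all features were called in those directions). Annotated genes were called in 4.15% of cases and antisense loci in 12.9%.

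At 7 of the 10 the other library had no intergenic reads. A locus on the minus strand at chr2:180719391-180720689, 658 bases past the end of Gid8, a subunit of a ubiquitin ligase complex, had 78 reads in replicate 1 and 0 in replicate 2 (at least 24.1-fold lower against a floor of 3 counts, adjusted p 6.63e-20). On the plus strand at chr2:180719359-180721593 the pattern was the opposite, 0 and 61 reads (at least 21.9-fold higher, adjusted p 3.07e-17). The minus-strand bases lie within the plus-strand ones, so these 2 calls, 1 in each direction, come from the same region. RefSeq's Gid8 overlaps both loci, so they lie past its end in GENCODE only. Replicate 2 had 28 reads and replicate 1 had 0 beside the pseudogene Gm2423 (chr13:13231483-13232161, minus strand, at least 10.1-fold, adjusted p 2.09e-07). The count was 0 and 18 past Klhl11 (chr11:100458756-100461668, plus strand, adjusted p 1.40e-04), 0 and 17 beside the pseudogene Gm9800 (chr14:8799313-8800000, minus strand, adjusted p 2.68e-04) and 0 and 15 beside the pseudogene Gm1943 (chr8:109339804-109340691, minus strand, adjusted p 9.57e-04). Past Gpr137b, which encodes a lysosomal membrane protein, it was 13 and 0 (chr13:13353431-13355879, plus strand, adjusted p 0.00975). RefSeq's Klhl11 overlaps the Klhl11 locus on the opposite strand. The remaining 3 calls were Gm9825 with 118 and 33 reads (log2 ratio -1.72, adjusted p 8.46e-09), Gm7335 with 49 and 15 (-1.57, 0.00361) and the Gm52290 locus with 20 and 3 (-2.44, 0.0177).

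Reads missing from the intergenic class were often present under another class. Over the minus-strand Gid8 locus replicate 2 had 60 antisense-class reads against the 78 intergenic ones of replicate 1, and over the plus-strand locus replicate 1 had 71 reads of Gid8 models against 61. At Klhl11 the pooled reads were 25 and 18, at Gm9800 29 and 17, at Gm2423 14 and 28, at Gpr137b 13 and 7 and at Gm52290 20 and 17. With same-strand reads of all classes added, 3 of the 10 loci remained called, Gm9825, Gm7335 and Gm1943. All 3 share their edge base with a pseudogene whose own reads went the other way: 20 and 96 for Gm9825, 2 and 38 for Gm7335 and 32 and 11 for Gm1943. None of these gene reads lay on models counted as covering the locus. That count requires a set share of the locus's exon bases, so gene models reaching less of the locus are not excluded. Whether the reads of locus and gene come from separate stretches was not tested. Added together, the reads of locus and gene were 138 and 129, 51 and 53, and 32 and 26. With such genes added none of the 10 loci was called. Across all loci with at least 10 such reads, 5 of 150 were called, which were other loci than the 10. In the main test 4.50% of all features were called. At Phlda3, Cct4, Cnot6 and Trir, among the 5, the locus itself had 1 intergenic read, so the call rests on the gene's reads. The sums over classes and genes were formed after the calls were seen.

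The genes beside the called loci were tested in the same way. Gid8 had 95 and 20 reads as an annotated gene (log2 ratio -2.11, counting SE 0.35, adjusted p 1.59e-09). Of the 95, 71 lay on models covering the plus-strand locus, and the rest was 24 against 20. Gm9825 (2.34, adjusted p 4.97e-12) and Gm7335 (4.05, adjusted p 5.91e-08) were called as genes in the direction opposite to their loci, with none of their reads on models covering the locus. As genes, Gm1943 (32 and 11 reads, adjusted p 0.0660), Gm2423 (24 and 7, 0.0951), Gm9800 (12 and 9, 0.927), Gpr137b (71 and 70, 0.966) and Zfp51 (9 and 8, 1.00) were not called.

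**Figure D4:**
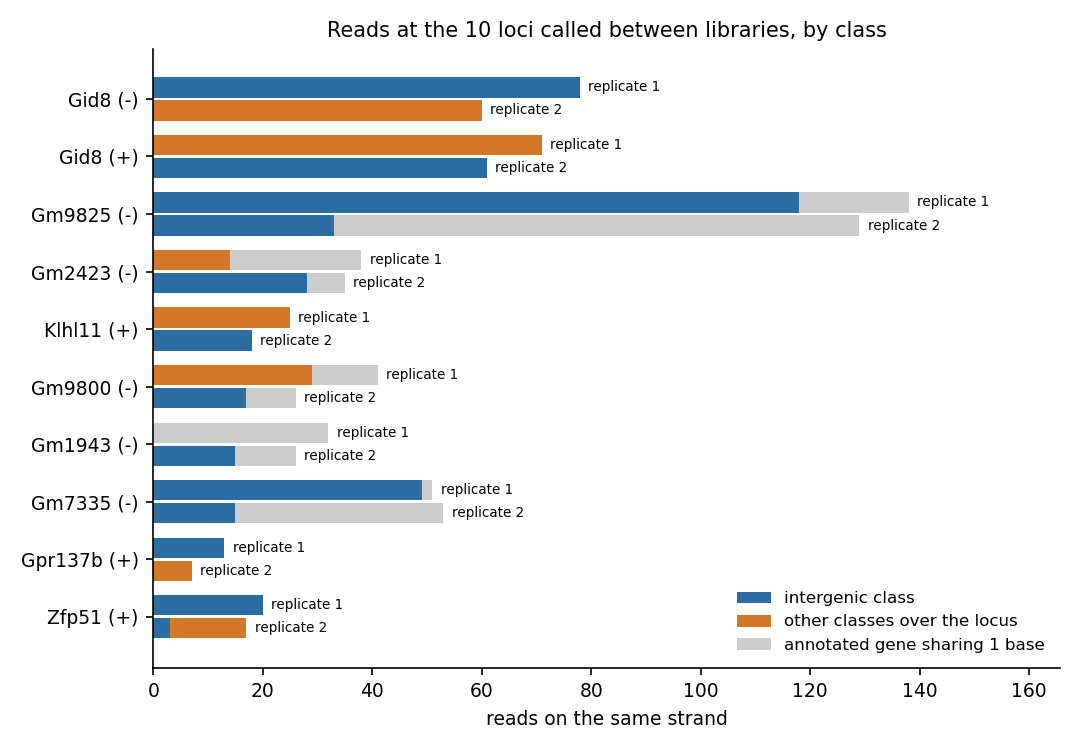
Same-strand reads (x axis) at the 10 called loci in replicate 1 (upper bar) and replicate 2 (lower bar), stacked as intergenic-class reads, reads of other classes over the locus, and reads of the annotated gene that shares its edge base with the locus. Loci are named by nearest gene and strand; the stacked totals of the libraries are closer than their intergenic parts.

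Most loci read in 1 library alone had no counterpart of any class in the other. Of the 719 loci read in replicate 1 alone, replicate 2 had a same-strand model of another class over 41, an opposite-strand model over 19 and reads of the gene sharing the edge base for 57, and none of these for 602. Of the 496 of replicate 2 the numbers were 28, 16, 29 and 423. With at least 5 reads the picture differed: 2 of 11 loci of replicate 1 and 0 of 10 of replicate 2 had no such reads in the other library. A locus with 0 reads could have reached 3.79 CPM (counts per 1e6 reads) in replicate 1 and 4.08 CPM in replicate 2, the level of 3 counts, so the absence of most 1-read loci from the other library was not detectable as a difference.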

How the data were processed

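Long-read RNA sequencing of 2 C2C12 libraries, biological replicates of 1 group, was used as deposited: per the file headers, raw read counts per transcript model, with exon number and length, and paired annotations with mm10 coordinates on GENCODE M21. Unannotated models carry TALON as their source. No aligner, version or filter is given in the sources used here. Tables list only models with at least 1 read. Genes were placed with the GENCODE M21 release, since 15686 and 15748 of 55536 deposited gene intervals have another start or end. Loci, overlaps, gaps and tests were computed in Python 3.11.15 with pandas 2.3.3 and scipy 1.17.1, and checked on simulated data. The log2 ratios used an offset of 0.5 reads. TMM totals came from edgeR 4.0.16 and size factors from DESeq2 1.42.0. A read of another class counted at a locus where its model covered 50% of the locus's exon bases. Loci were named by rule: the 10 spliced and 10 one-exon loci with the highest lower count, 5 calls per direction, 3 loci with the most exons and 3 read in 1 library. Gm2560 and the sequences were chosen outside it. Members and lists were chosen with earlier results of these data known. Alternatives covered read minimums, merging, strand, windows, scaling and read class. Checks of the genome sequence at model ends and introns were not run.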

Additional observations from a re-analysis of the deposited data

How the results depend on the processing

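No paired analysis was possible because the series has 1 group. With models of at least 2 and at least 5 reads, the intergenic share of all reads (0.226% over both libraries) was 0.138% and 0.106%, the spliced share of intergenic reads (22.3%) was 24.2% and 25.4%, and the share of loci read in both libraries (14.0%) was 27.6% and 30.5%. Ignoring strand gave 16.5% of loci in both, and adding same-strand reads of any class, an alternative chosen after seeing the data, 18.9%. Single libraries gave 0.204 to 0.246% of reads, 19.2 to 26.2% spliced and 62.5 to 65.0% of loci within 5 kb. Sharing at least 1 intron held for 27 chains in place of 17. Loci near a gene (63.5% within 5 kb) were 52.3% for protein-coding genes only, 36.1% within 1 kb and 85.5% within 20 kb. The 10 calls between libraries became 5 of 8 tested at a minimum of 50 reads, where Pgam1-ps2 passed the threshold (adjusted p 0.0384, log2 ratio 1.25, by the exact binomial test). TMM, DESeq2 size factors, no read filter and merging within 1 kb each gave 10. Chosen after seeing the data, any-class reads gave 5 of 51 and those with the gene 5 of 150, beside 4.50% of all features in the main test. The first turned the log2 ratio at plus-strand Gid8 to -0.11, Klhl11 to -0.36 and Gm9800 to -0.65. The second gave 0.01 at Gm9825, 0.16 at Gm7335, -0.11 at Gid8, -0.01 at Gm2423, -0.36 at Klhl11, -0.54 at Gm9800 and -0.19 at Gm1943. Leaving out a library leaves nothing to test between libraries. Depth limits these results: 82.6% of models in each library rest on 1 read.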
